A study of Mus musculus with 12 samples.

Results

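The tropomyosin genes Tpm1, Tpm2, Tpm3 and Tpm4 and the Tpm3 copy Tpm3-rs7 were examined in bulk RNA of mouse medial prefrontal cortex. They were taken by gene name and make up 5 of the 55678 gene names in the data. Together they fill 48 of 147902 transcript rows, and they were chosen because Tpm3-rs7 was seen almost only in BALB/c libraries. Any contrast between the strains in these genes is therefore given as a description without a test. The 12 libraries fell into 4 groups of 3. B6 mice (C57BL/6JmsSlc) and BALB/c mice (BALB/cCrSlc), both inbred strains aged 9 to 10 weeks and not otherwise described as altered, were either handled as controls or put through chronic restraint stress (CRS), which here meant 6 h in a restrainer on each of 21 days. Libraries are named by strain, treatment and the number in their title. The labels give no sex, litter or sequencing batch and do not state outright that each library is a separate animal, so a p-value measures the spread between these libraries.

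Tropomyosins are rod-shaped proteins that pair as coiled coils and lie end to end along actin filaments, where they set which motors and severing proteins can reach the filament. Each of the 4 genes yields several products through different promoters and alternative exons. In neurons, products of Tpm1, Tpm3 and Tpm4 mark separate actin populations in axons, growth cones and synapses, whereas Tpm2 is best known from muscle. A retrogene is a copy of a messenger RNA that was written back into the genome and so lacks the introns of its parent.

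The locus of each gene is given on GRCm38, the build named in the submitters' processing notes, from GENCODE M21. Tpm1 lies at chr9:67022590-67049406 on the minus strand, Tpm2 at chr4:43514711-43523765 on the minus strand, Tpm3 at chr3:90072649-90100902 on the plus strand and Tpm4 at chr8:72134975-72153142 on the plus strand. Tpm3-rs7 (ENSMUSG00000058126.7) lies on another chromosome than its parent, at chr14:113314608-113316754 on the plus strand, as 1 exon of 2147 bases with no intron. The longest coding transcript of Tpm3 (ENSMUSG00000027940.18) has 9 exons. M21 types Tpm3-rs7 as protein coding with a retrogene tag, while the RefSeq gene table lists it as a pseudogene.

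Tpm3-rs7 is close to 1 spliced form of its parent. Its transcript matched Tpm3-201 at 99.1% of 2108 aligned positions, with 19 differences in all, and another spliced form matched at 99.16% over 1910 positions. Both sequences are those of the reference genome, which is of C57BL/6J; the sequence of BALB/c was not used here. The coding stretches of both transcripts are 747 bases long and differ by 3 substitutions and no gap, and the other 16 differences lie outside them. Tpm3-rs7 has 0 stop codons in frame before the last codon. Counted from 1 at the A of the start codon, with the base of Tpm3-201 first, the 3 substitutions are G72A, G98A and G127A, at the third, the second and the first base of a codon. All 3 fall in the 120 coding bases from position 8 to 127, which are printed here because they are where the coding stretches differ; capitals mark the differing bases.
Tpm3-201: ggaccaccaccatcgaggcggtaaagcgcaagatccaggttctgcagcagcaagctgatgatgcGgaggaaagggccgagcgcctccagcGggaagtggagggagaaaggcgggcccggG
Tpm3-rs7-201: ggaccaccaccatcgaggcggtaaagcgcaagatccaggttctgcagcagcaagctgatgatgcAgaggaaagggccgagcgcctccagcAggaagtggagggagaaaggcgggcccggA

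After the last of these bases the copy ran for 624 bases, including the rest of the coding stretch, without a difference from Tpm3-201. Of the 2117 windows of 31 bases in Tpm3-rs7, 78.6% occur letter for letter in a Tpm3 transcript. Of its 1998 windows of 150 bases, the read length per the labels, 33.8% do. By these sequences a read from such a window does not by itself tell the copy from its parent. The libraries were read from both ends, and pairs of windows, of which fewer may be shared, were not counted. The values of Tpm3-rs7 and of the Tpm3 rows depend on how the quantifier split the reads that stayed shared. A further 7 processed pseudogenes in M21 matched the Tpm3-rs7 transcript at 88.3% to 91.0% identity over 324 to 722 aligned positions. All 7 were listed at 0 in all 12 libraries. The plot of windows along the copy shows where the differences lie.

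**Figure D1:**
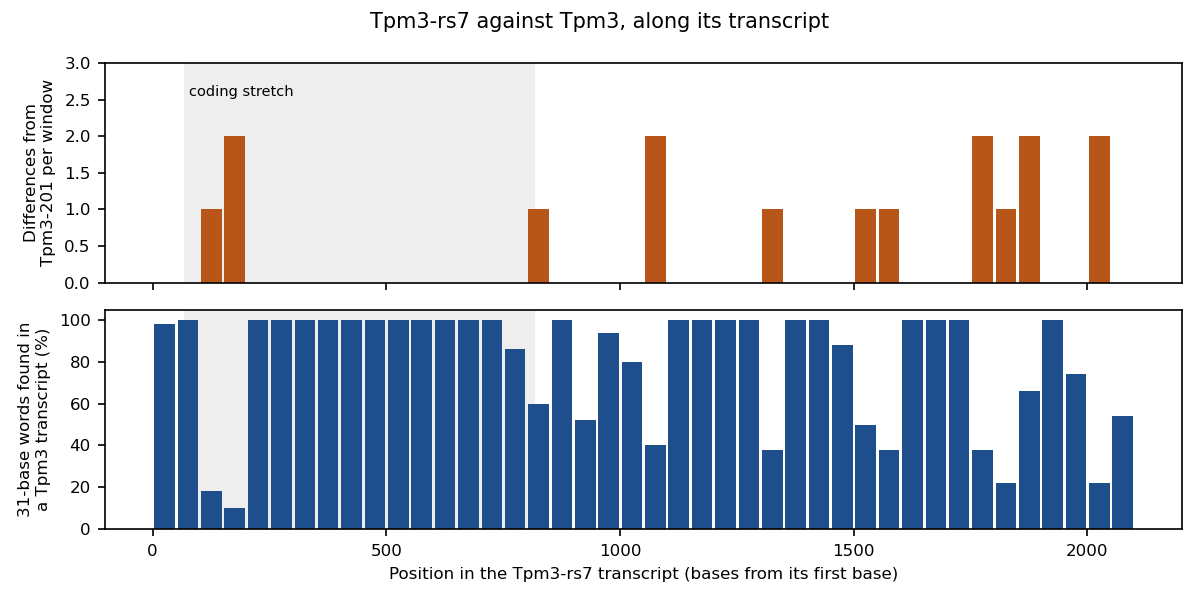
Tpm3-rs7 compared with Tpm3 in windows of 50 bases along the Tpm3-rs7 transcript, with the coding stretch shaded. The upper panel counts differences from Tpm3-201 (those that fall between bases of Tpm3-rs7 are not drawn) and the lower panel gives the percentage of 31-base words that occur in any Tpm3 transcript; a stretch of 624 bases holds no difference.

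All levels are in TPM, an estimate of transcript abundance per length, so they can be compared between genes. Every library has the same TPM total, so the number of reads behind a value is unknown and no counting error can be given. All 5 genes passed the filter for testing (at least 1 TPM in at least 3 libraries), Tpm3-rs7 through its BALB/c libraries alone.

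The number of genes at 1 TPM or more separated the strains, with 15275 to 15542 in the B6 libraries and 14805 to 15273 in the BALB/c libraries; its part in the strain contrasts was not tested. Other measures varied within the groups. Mitochondrial genes took 17.35% to 21.99% of the total in B6 and 20.19% to 23.9% in BALB/c, and each BALB/c control lay above every B6 library. The neuronal RNA Bc1 took 8.68% to 13.5% over all libraries. The 18S ribosomal RNA gene took 3.97% in BALB/c CRS 12 and at most 0.169% in the others, and that library had the lowest Tpm1, Tpm3 and Tpm4 of all 12. Markers of the labelled tissue were present throughout: Slc17a7, of cortical excitatory neurons, was at least 390.4 TPM. Markers of neighbouring striatal neurons were present too and varied widely, from 178.2 to 2426 TPM in sum over 6 genes (Drd1, Drd2, Penk, Adora2a, Ppp1r1b and Rgs9) in B6 and from 82.9 to 323.5 TPM in BALB/c. Of 5 skeletal muscle markers 1 passed the filter, and their sum was at most 4.31 TPM.

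Tpm3-rs7 was near 0 in every B6 library and close to 79 TPM in every BALB/c library. In the B6 controls 2, 3 and 9 it was listed at 0, 0.576 and 0.0708 TPM, and in the B6 CRS libraries 12, 13 and 14 at 0, 0.241 and 0.488 TPM. In the BALB/c controls 5, 9 and 10 it stood at 80.85, 76.2 and 72.8 TPM (mean 76.6 ± 4.06, SD, n = 3). In the BALB/c CRS libraries 12, 13 and 15 it stood at 75.7, 84.1 and 84.8 TPM (81.6 ± 5.04, SD, n = 3). The 6 libraries of a strain held together, and the strains were apart by more than 72 TPM. An exact 0 in an estimate of this kind can also be a value the quantifier did not resolve.

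Its parent Tpm3 did not show this contrast. The B6 controls had 136.9, 164.5 and 180.8 TPM (160.7 ± 22.2, SD, n = 3) and the B6 CRS libraries 131.0, 143.8 and 153.2 TPM (142.7 ± 11.2, SD, n = 3). The BALB/c controls had 141.6, 142.8 and 135.5 TPM (140.0 ± 3.93, SD, n = 3) and the BALB/c CRS libraries 119.7, 159.4 and 150.3 TPM (143.1 ± 20.8, SD, n = 3). The strains overlapped. On the log2(TPM + 1) scale BALB/c minus B6 was -0.19 in controls and 0.00 under CRS.

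With the copy added to its parent, the strains separated. The sum of Tpm3 and Tpm3-rs7 ran from 131.0 to 180.9 TPM in the 6 B6 libraries and from 195.4 to 243.5 TPM in the 6 BALB/c libraries, so every BALB/c library lay above every B6 library. The log2 difference of the sum, BALB/c minus B6, was 0.43 in controls and 0.65 under CRS. Tpm3-rs7 made up 35.4% ± 0.850 of this sum in the BALB/c controls (SD, n = 3) and 36.5% ± 2.13 under CRS (SD, n = 3), against 0% to 0.349% over the B6 libraries. Over the 6 BALB/c libraries the share ran from 34.5% to 38.75%.

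**Figure D2:**
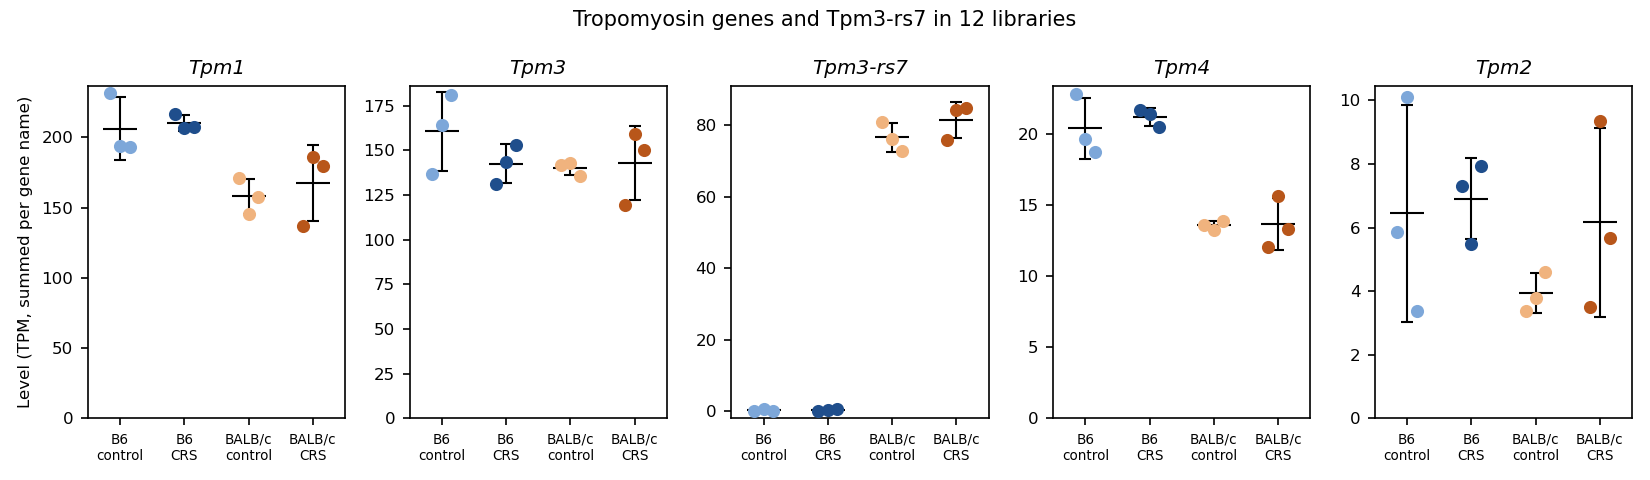
Level in TPM of each gene, summed over its transcript rows, in the 3 libraries of each group; points are libraries, horizontal bars the group mean and whiskers 1 SD, and each panel has its own vertical scale. Tpm3-rs7 lies at 72.8 to 84.8 TPM in BALB/c and under 0.6 TPM in B6, Tpm1 and Tpm4 lie lower in all 6 BALB/c libraries, and Tpm3 and Tpm2 overlap.

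Tpm1, the most abundant tropomyosin gene here, was lower in BALB/c. The B6 controls had 231.7, 193.8 and 193.0 TPM (206.2 ± 22.1, SD, n = 3) and the B6 CRS libraries 216.7, 206.6 and 207.2 TPM (210.2 ± 5.70, SD, n = 3). The BALB/c controls had 170.8, 145.7 and 157.5 TPM (158.0 ± 12.6, SD, n = 3) and the BALB/c CRS libraries 136.5, 186.1 and 179.3 TPM (167.3 ± 26.9, SD, n = 3). The highest BALB/c library, at 186.1 TPM, lay below the lowest B6 library. BALB/c minus B6 was -0.38 on the log2 scale in controls and -0.34 under CRS, beside medians over all tested genes of -0.10 and -0.06. Without BALB/c CRS 12 the difference under CRS was -0.20.

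Tpm4, whose product is found at the growing ends of neurites and at synapses, showed the same order of the strains at a far lower level. It stood at 22.8, 19.6 and 18.75 TPM in the B6 controls (20.4 ± 2.15, SD, n = 3) and at 21.7, 21.4 and 20.5 TPM in the B6 CRS libraries (21.2 ± 0.640, SD, n = 3). It stood at 13.6, 13.2 and 13.9 TPM in the BALB/c controls (13.6 ± 0.320, SD, n = 3) and at 12.05, 15.6 and 13.35 TPM in the BALB/c CRS libraries (13.7 ± 1.81, SD, n = 3). No BALB/c library reached the lowest B6 library, and the log2 differences were -0.55 in controls and -0.60 under CRS, or -0.52 under CRS without BALB/c CRS 12.

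Tpm2 was the lowest of the 4 parent genes and varied most between libraries of a group relative to its level. It ranged from 3.37 to 10.1 TPM in B6 (controls 6.45 ± 3.41 and CRS 6.91 ± 1.28, SD, n = 3 each) and from 3.37 to 9.36 TPM in BALB/c (controls 3.93 ± 0.630 and CRS 6.17 ± 2.97, SD, n = 3 each). The strains overlapped. The summed level of 9 mural and smooth muscle markers, among them Acta2, Tagln and Myh11, ran from 86.03 to 164.5 TPM and was highest in B6 control 3, where Tpm2 was also highest; the part of vessel wall cells in the level of Tpm2 was not tested.

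Of the 5 genes, 3 (Tpm1, Tpm4 and Tpm3-rs7) had 6 B6 and 6 BALB/c libraries that did not overlap, and 8.95% of the 16423 tested genes had such a gap. These genes were chosen with the strain contrast known, and nothing is read from this count. Over all tested genes limma called 4.73% between the strains in controls and 7.7% under CRS, and no call of the 5 genes in these contrasts is used here. In bulk RNA a lower level of Tpm1 or Tpm4 from fewer cells of a type and from less RNA per cell cannot be told apart. The summed level of 6 myelin markers ran from 1184 to 4527 TPM in B6 and from 215.8 to 1457 TPM in BALB/c, and that of 6 astrocyte markers from 771.2 to 903.4 TPM and from 557.9 to 800.7 TPM. With the myelin score as a covariate the log2 difference of Tpm4 was -0.43 in controls and -0.48 under CRS (SE 0.16 each). That of Tpm1 was -0.26 and -0.21 (SE 0.17 each). The myelin sums largely followed strain, so in this fit myelin content and strain cannot be told apart. The part of astrocytes was not tested.

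The order of the levels was the same in both strains apart from Tpm3-rs7. In B6 it was Tpm1, Tpm3, Tpm4, Tpm2 and Tpm3-rs7, and no 2 neighbours overlapped over the 6 libraries. In BALB/c it was Tpm1, Tpm3, Tpm3-rs7, Tpm4 and Tpm2. There the ranges of Tpm1 and Tpm3 overlapped, although Tpm1 was the higher of both in 6 of 6 libraries. The 4 parent genes together summed to 376.8 to 397.4 TPM in B6 and to 271.7 to 370.5 TPM in BALB/c, which do not overlap. With Tpm3-rs7 included, BALB/c ran from 347.5 to 454.6 TPM and overlapped B6.

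The transcript rows of the table carry a gene name and no transcript identifier, so they are numbered here in the order of the file within each gene and are not matched to named isoforms. Of the 48 rows, 25 passed the filter: 12 of 21 for Tpm1, 2 of 6 for Tpm2, 9 of 16 for Tpm3, 1 of 4 for Tpm4 and the only row of Tpm3-rs7. In all 12 libraries 6 rows were listed at 0.

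Although the total of Tpm3 overlapped between the strains, the rows that made it up differed. Rows 3, 4, 5 and 7 held between 92.1% and 95.2% of Tpm3 in every library. Row 3 averaged 61.4 TPM in B6 (SD 2.84, n = 6, range 58.0 to 65.1) and 3.995 TPM in BALB/c (SD 0.978, n = 6, range 2.82 to 5.45), which was 40.5% of Tpm3 in B6 and 2.82% in BALB/c. Row 5 went the other way, from 7.38 TPM in B6 (SD 4.92, n = 6, range 2.56 to 13.5) to 61.6 TPM in BALB/c (SD 9.88, n = 6, range 45.8 to 76.0), or from 4.87% to 43.5% of Tpm3. The largest row in one strain was thus among the small ones in the other.

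Rows 4 and 7 also went opposite ways, by less. Row 4 averaged 48.4 TPM in B6 (SD 6.86, n = 6, range 39.35 to 58.6) and 18.6 TPM in BALB/c (SD 2.04, n = 6, range 15.75 to 21.1). Row 7 averaged 25.6 TPM in B6 (SD 5.31, n = 6, range 20.7 to 34.9) and 48.3 TPM in BALB/c (SD 4.70, n = 6, range 41.8 to 53.25). None of these 4 rows overlapped between the strains. The sums of the exchanging pairs did overlap: rows 3 and 5 together held 68.8 TPM in B6 (SD 6.91, n = 6) and 65.6 TPM in BALB/c (SD 10.2, n = 6), and rows 4 and 7 together 74.1 TPM (SD 11.2, n = 6) and 66.9 TPM (SD 5.52, n = 6). The pairs were put together after their values were seen.

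**Figure D3:**
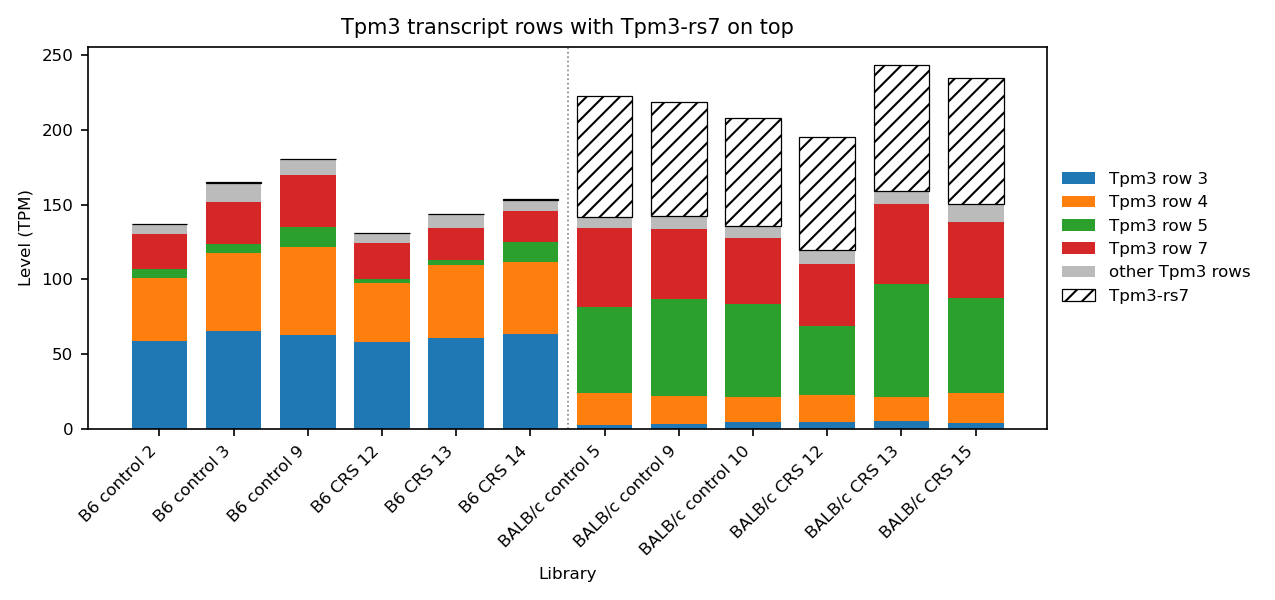
Tpm3 level in TPM in each library, stacked by transcript row, with Tpm3-rs7 (hatched) on top; B6 libraries stand left and BALB/c libraries right of the dotted line. Row 3 averages 61.4 TPM in B6 and 3.995 TPM in BALB/c, row 5 averages 7.38 and 61.6 TPM, and Tpm3-rs7 is visible in the BALB/c bars only.

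Counting all 5 genes, 6 of the 25 tested rows had B6 and BALB/c libraries that did not overlap, beside 5.0% of the 46000 tested rows. They were Tpm3 rows 3, 4, 5 and 7, the row of Tpm3-rs7 and Tpm4 row 2, which held 98.0% of Tpm4 in B6 and 97.3% in BALB/c and stood at 20.4 TPM (range 18.6 to 22.75) and 13.3 TPM (range 11.5 to 15.45). The rows of a gene share reads, as Tpm3 and Tpm3-rs7 do, and are not separate observations. The row of Tpm3-rs7 passed the filter through its BALB/c libraries alone. Since the genes were chosen with the strain contrast known, nothing is read from this count of rows.

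No single row of Tpm1 separated the strains, although the gene did. Row 5, the largest, averaged 69.0 TPM in B6 (SD 5.84, n = 6) and 70.7 TPM in BALB/c (SD 6.40, n = 6), which was 33.1% and 43.45% of Tpm1. Among the rows with a lower mean in BALB/c were row 11, with 49.9 TPM (range 38.9 to 62.8) against 30.3 TPM (range 20.3 to 41.6), and row 3, with 20.6 TPM (range 13.4 to 25.3) against 12.0 TPM (range 8.92 to 15.98). The strains overlapped in both rows.

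Tpm1 row 16 was at 0 throughout BALB/c but was uneven in B6. It stood at 37.3, 6.00 and 0 TPM in the B6 controls 2, 3 and 9 and at 42.7, 20.8 and 0 TPM in the B6 CRS libraries 12, 13 and 14. In the same order row 15 stood at 8.18, 13.2 and 34.7 TPM and at 0, 14.5 and 31.4 TPM. The libraries at 0 in one row held the most of the other, and the sum of rows 15 and 16 ran from 19.2 to 45.5 TPM in B6 and from 19.6 to 25.8 TPM in BALB/c. Tpm1 row 16 is therefore not counted as a row that separates the strains.

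**Figure D4:**
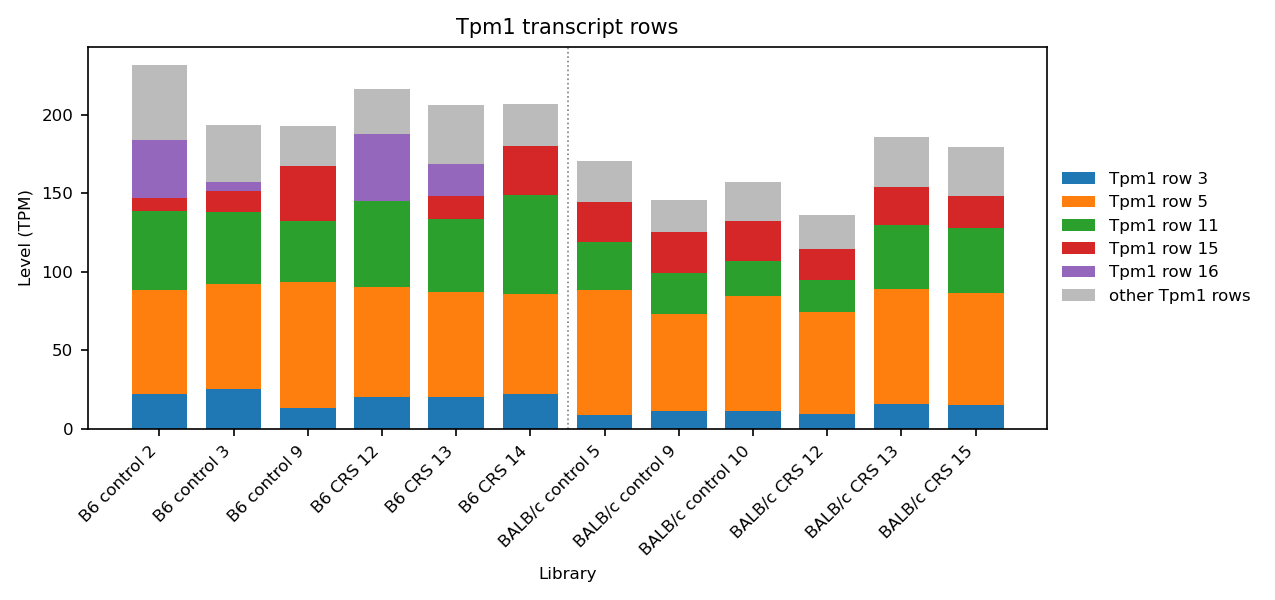
Tpm1 level in TPM in each library, stacked by transcript row, with the 16 rows not named drawn as 1 grey segment; B6 libraries stand left and BALB/c libraries right of the dotted line. Row 5 averages 69.0 TPM in B6 and 70.7 TPM in BALB/c, and row 16 appears in 4 of the 6 B6 libraries and in no BALB/c library.

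The study compared the strains for their response to CRS, and here the 5 genes could be tested, since they were not chosen on it. No tropomyosin gene passed the test in either strain. In limma fits over 16423 genes, 0 of the 5 genes were called in B6, in BALB/c, in the difference between the strains or in the effect averaged over strains, and none had an unadjusted p under 0.05. Over all genes 0.0% were called in B6, 0.00609% in BALB/c (1 gene), 0.0% in the difference between strains and 0.00609% in the average, while 792, 497, 443 and 849 genes had an unadjusted p under 0.05. The CRS and control libraries overlapped for all 5 genes in both strains, where 8.33% of tested genes in B6 and 7.39% in BALB/c did not overlap.

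For Tpm1 the log2 difference, CRS minus control, was 0.03 in B6 (95% interval -0.24 to 0.31) and 0.07 in BALB/c (-0.20 to 0.34). For Tpm3 it was -0.16 in B6 (-0.44 to 0.12) and 0.02 in BALB/c (-0.26 to 0.30), and the difference of these effects was 0.19 (-0.21 to 0.58, limma adjusted p = 1.0). For Tpm4 it was 0.06 in B6 and 0.00 in BALB/c, each with an SE of 0.12. These intervals leave room for changes of up to 0.44 on the log2 scale in these 3 genes. Tpm2 was less precise, at 0.18 in B6 (SE 0.34) and 0.47 in BALB/c (SE 0.34).

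For Tpm3-rs7 a CRS effect has meaning in BALB/c only, since the gene was under 0.6 TPM in every B6 library. There it was 0.09 (SE 0.18, 95% interval -0.31 to 0.49, limma adjusted p = 1.0). With Tpm3 and Tpm3-rs7 taken as 1 sum, CRS minus control was -0.16 in B6 and 0.05 in BALB/c (SE 0.12 each, limma adjusted p = 1.0 for both). No result for the 5 genes under CRS passed the threshold in any of the alternative analyses run for it.

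**Figure D5:**
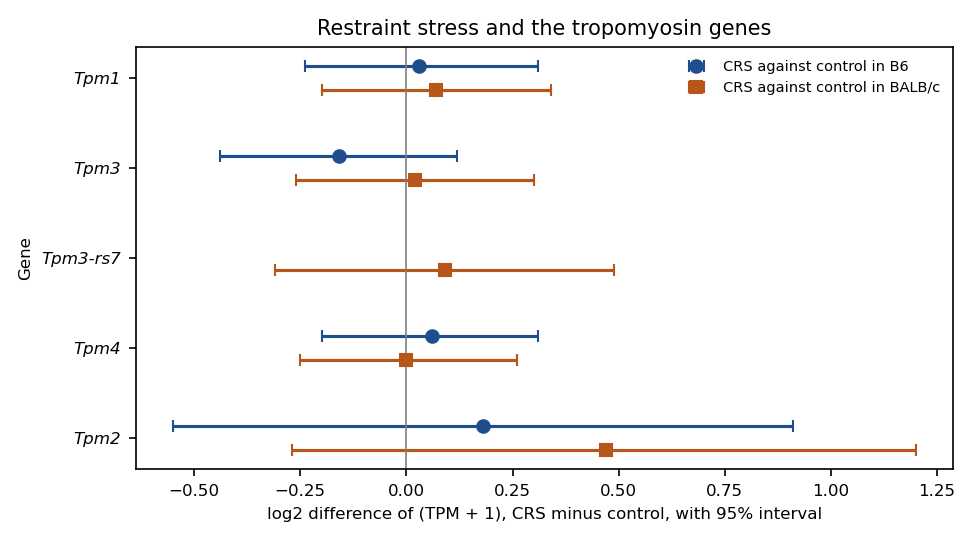
CRS minus control on the log2(TPM + 1) scale for each gene, from limma, with circles for B6 and squares for BALB/c; whiskers are 95% intervals, and Tpm3-rs7 is left out for B6, where it is near 0. All intervals include 0, and those of Tpm2 are the widest (SE 0.34 in both strains).

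Transcript rows gave no CRS call either. Of the 25 tested rows, 0 were called in any CRS contrast, and the smallest adjusted p in limma was 0.992; over all 46000 rows 0.0109% were called in B6, 0.0% in BALB/c and in the difference between strains, and 0.00435% in the average. In B6, 2 rows had an unadjusted p under 0.05, Tpm3 row 15 (log2 difference -0.91) and Tpm3 row 7 (-0.34), and none had one in BALB/c. CRS and control libraries did not overlap for 1 of the 25 rows in B6 and for 2 in BALB/c, beside 8.38% and 8.52% of all tested rows. The strain contrast of Tpm3 row 3 was present with and without CRS: row 3 was between 34.8% and 44.3% of Tpm3 in all 6 B6 libraries and between 1.99% and 3.75% in all 6 BALB/c libraries.

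Some tropomyosin genes varied together within a strain. Relations between Tpm1, Tpm2, Tpm3 and Tpm4 were computed over the 6 libraries of each strain on the log2 scale, 12 relations in all, each with an exact two-sided permutation test over 720 orderings. In B6, Tpm1 and Tpm4 rose and fell together, with Pearson's r = 0.95 (exact p = 0.00556, Benjamini-Hochberg adjusted p = 0.0417) and Spearman's rho = 0.94 (exact p = 0.0167, adjusted p = 0.1). Tpm3 ran against Tpm4, with r = -0.94 (exact p = 0.00694, adjusted p = 0.0417) and rho = -0.94 (exact p = 0.0167, adjusted p = 0.1). Without the 2 libraries farthest from the median of the first gene, r was 0.90 and -0.98. Neither rank correlation passed after adjustment.

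In BALB/c the sign for Tpm3 and Tpm4 was positive, with r = 0.84 (exact p = 0.0667, adjusted p = 0.114) and rho = 0.49 (exact p = 0.356, adjusted p = 0.474), and r without the 2 farthest libraries was -0.78, so that relation rests on those libraries. For Tpm1 and Tpm3 r was -0.86 in B6 and 0.87 in BALB/c (exact p = 0.0306 and 0.0153, adjusted p = 0.0917 and 0.0611). Spearman's rho was -0.89 and 0.83 (exact p = 0.0333 and 0.0583, adjusted p = 0.133 and 0.175). Without the 2 farthest libraries r was -0.94 in B6 and 0.54 in BALB/c. Tpm1 and Tpm4 in BALB/c had r = 0.79 (exact p = 0.0403, adjusted p = 0.0967) and rho = 0.77 (exact p = 0.103, adjusted p = 0.247). Their r fell to 0.09 without the 2 farthest libraries. The difference between the strains was not tested, and a treatment group alone, with 3 libraries, is too small for a value. In B6 the sum of the striatal markers was highest in control 2, at 2426 TPM, where Tpm1 and Tpm4 were also highest. It was lowest in control 9, at 178.2 TPM, where Tpm3 was highest. The 5 cortical excitatory markers ran from 1192 to 2469 TPM in B6 and from 1613 to 2240 TPM in BALB/c. Their part in the relations was not tested.

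The tested genes most like each tropomyosin gene over the 12 libraries are given by Pearson's r of log2(TPM + 1), as a description; the 12 points share 2 strains, the library totals and the makeup of the tissue punches. For Tpm2 the closest of 13635 genes was Myh11 (r = 0.95), the smooth muscle myosin heavy chain, and Mtss1 (r = 0.925) was also among the 3 closest. For Tpm1 the closest was Glul (r = 0.969), the glutamine synthetase of astrocytes, and Cnot6 (r = 0.967) was also among the 3 closest. For Tpm3 the 3 closest were Tbc1d24 (r = 0.96), Hnrnph2 (r = 0.954) and Cntn1 (r = 0.952), a neuronal adhesion protein, and for Tpm4 Ptp4a2 (r = 0.978), Gramd3 and Ivd (r = 0.975 each). With the strain means removed, r was at least 0.905 for the genes named with Tpm1, Tpm2 and Tpm3, and 0.753 to 0.824 for those named with Tpm4.

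For Tpm3-rs7 the closest genes were Rps3a2 (r = 0.998), Ahcyl (r = 0.997), Ppihl (r = 0.996), Eno1b (r = 0.995) and Hmga1b (r = 0.994). These too were near 0 in B6 and present in BALB/c: Rps3a2 reached at most 0.677 TPM in B6 and was at least 124.1 TPM in BALB/c, and Eno1b ran from 1.32 to 3.21 TPM in B6 and from 262.0 to 303.4 TPM in BALB/c. With the strain means removed, r fell to between -0.152 and 0.528, so their likeness to Tpm3-rs7 lay in the strain contrast. In M21 Eno1b carries the retrogene tag, Rps3a2 is a processed pseudogene and Hmga1b has a single exon.

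Tpm3-rs7 was 1 of 20 genes with under 1 TPM in all 6 B6 libraries and at least 10 TPM in all 6 BALB/c libraries, limits that were set after its values were seen. It ranked 13 among them by its mean in BALB/c. Of the 20 genes, 17 are in M21; all 17 have single-exon transcripts only, and 13 (76.5%) are processed pseudogenes. Among the 15617 tested genes found in M21, 8.45% have single-exon transcripts only and 3.55% are processed pseudogenes. The opposite pattern, near 0 in BALB/c and present in B6, was met by 7 genes, of which 2 of the 5 in M21 have single-exon transcripts only.

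The partners of tropomyosin on the actin filament were followed through a list of 43 genes, of which 36 passed the filter. Under CRS none of the 36 was called in B6, in BALB/c, in the difference between strains or in the average, and the smallest adjusted p in limma was 0.946. The median log2 difference of the list was 0.01 in B6 and 0.01 in BALB/c, beside 0.00 and 0.05 over all tested genes. The 2 most abundant genes of each sub-list are given by their mean over 12 libraries. They were the cytoplasmic actins Actb (1004 TPM) and Actg1 (949.7 TPM), the filament-severing Cfl1 (985.1 TPM) and Dstn (133.3 TPM), and the myosin light chains Myl6 (715.1 TPM) and Myl12b (450.6 TPM). Dbn1, the dendritic spine protein drebrin, stood at 163.1 TPM and the formin Fmn2 at 21.75 TPM. Tmod2 (100.5 TPM) and Tmod3 (30.6 TPM), which cap the slow-growing filament end together with tropomyosin, had CRS log2 differences of -0.16 and -0.19 in B6 and -0.11 and -0.17 in BALB/c. Calponin Cnn3 (52.3 TPM) and caldesmon Cald1 (13.7 TPM) showed 0.30 and 0.33 in B6 and 0.13 and 0.37 in BALB/c. The troponins Tnnc1 (29.5 TPM) and Tnnt2 (14.9 TPM), known from muscle, showed -1.23 and -0.53 in B6 and -0.57 and -0.22 in BALB/c. The SE was 0.73 for Tnnc1 and 0.29 for Tnnt2 in each strain. Tnnc1 was uneven, from 3.85 to 58.43 TPM over the B6 libraries.

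Between the strains a few partners were lower in BALB/c. In controls 1 of the 36 was called lower, beside 3.37% of all tested genes, and under CRS 5 were, beside 5.33%; none was called higher. Myl12a, a regulatory light chain of non-muscle myosin, was lower in controls (log2 difference -1.0, limma adjusted p = 0.0321) and under CRS (-1.17, limma adjusted p = 0.0121), where it stood at 29.6 ± 5.95 TPM in B6 and 12.7 ± 3.38 TPM in BALB/c (SD, n = 3). Under CRS the actin-bundling protein Lima1 was lower (log2 difference -0.99, SE 0.23, limma adjusted p = 0.0263) as was Cnn3 (-0.69, SE 0.19, limma adjusted p = 0.049). The other 2, Cfl2 (-0.41, limma adjusted p = 0.0355) and Tmod1 (-0.43, limma adjusted p = 0.0486), were chosen for naming after their values were seen. In controls the differences had the same sign and were not called: -0.61 for Lima1, -0.52 for Cnn3, -0.39 for Cfl2 and -0.42 for Tmod1. A call under CRS alone is thus no sign that CRS changed the strain difference. Reads of close paralogs such as Myl12a and Myl12b or the actins may be split between them. The list's median was -0.14 in controls and -0.13 under CRS, beside -0.10 and -0.06 over all tested genes.

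These 5 calls under CRS were not stable. The count of partners called lower under CRS was 0 with the myelin score as a covariate, 2 with median-of-ratios scaling and 3 with a pseudocount of 0.1 TPM, and the count in controls was 0 with the covariate and with that scaling. Leaving out B6 CRS replicate 12 or 13 or BALB/c CRS replicate 12 or 15 gave 1 call, BALB/c CRS replicate 13 gave 0, and B6 control 3, B6 CRS 14 or BALB/c control 5 gave 2. Leaving out BALB/c control 10 gave 3. In controls the count was 0 without B6 control 2 or 3 or BALB/c control 5 or 10, 2 without BALB/c control 9 and 4 without B6 control 9.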

How the data were processed

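Polyadenylated RNA libraries of 12 samples were read from both ends at 150 bp, at roughly 6 Gb a sample, per the labels' protocols. The values are TPM as deposited by the authors, 1 row per transcript with a gene name only; the unit was read from the column sums of 1000000. The submitters' processing notes name cutadapt 2.9, Salmon and GRCm38; the annotation release and the use of strand are not given in the sources used here. TPM keeps no depth. Groups came from the sample titles. Rows were summed by gene name, and those reaching 1 TPM in 3 or more libraries were fitted on log2(TPM + 1) as 4 group means in limma 3.58.1 (R 4.3.3, intensity trend), with Benjamini-Hochberg adjusted p-values over all genes and calls under 0.05. The fit was tested on simulated data. Contrasts share groups: both strain contrasts use the libraries of the CRS contrasts. Sequences and loci are from GENCODE M21. The genes and lists were chosen with earlier results of these data known. Named were all 5 genes, the 2 most abundant genes of each sub-list of actin partners, up to 3 called genes per direction and contrast, and the 3 or 5 genes most like each by Pearson's r, leaving out symbols of the form Gm plus digits, Rik or -ps. A few genes that this rule names are not reported here. Alternatives changed the pseudocount, filter, scaling, covariate, replicate block and library set.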

Additional observations from a re-analysis of the deposited data

How the results depend on the processing

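No tropomyosin gene was called under CRS in any alternative, and no row of theirs with another pseudocount, no filter, median-of-ratios scaling, the replicate block or 1 library left out, the alternatives run on rows. The lower Tpm1 and Tpm4 in BALB/c kept their sign in all alternatives run on genes. Depth is unknown, so a small value of Tpm3-rs7 in B6 cannot be told from 0. Rescaling without mitochondrial, Bc1 and ribosomal RNA genes raised mean levels to 276.9 TPM for Tpm1, 8.73 for Tpm2, 219.1 for Tpm3, 25.7 for Tpm4 and 121.5 for Tpm3-rs7 in BALB/c, in the same order.

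The title numbers 9, 12 and 13 occur in both strains, so same-numbered libraries belong to different mice. Their deviations from the group means correlated at -0.242, -0.0293 and -0.0361 over 16423 genes. These values cannot settle whether equal numbers mark a shared handling, and the labels do not say so. With the shared numbers as a replicate block, all-gene calls went from 0 to 1 for CRS in B6 and from 1 to 0 in BALB/c. Between strains under CRS they went from 1264 to 750. Row calls went from 5 to 0 in B6 and from 2 to 0 in the average, and actin partners called lower from 1 to 0 in controls and from 5 to 1 under CRS. Uncalled signs turned for Tpm4 under CRS in B6 (-0.01), in BALB/c (-0.07) and in the average (-0.04) and for Tpm3 in the average (0.07).

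The 5 genes were chosen on the strain contrast, so nothing is read from their calls in it, which are listed only to show how the settings moved them. In the main fit 2 were called, Tpm4 and Tpm3-rs7, and Tpm3-rs7 had passed the filter through its BALB/c libraries alone. Over all genes 4.73% were called in controls and 7.7% under CRS. With the myelin covariate 1 was called, and Tpm4 stood at -0.43 in controls and -0.48 under CRS. With Tpm3 and Tpm3-rs7 summed, 1 was called in controls. All-gene calls between strains were 777 in controls and 1264 under CRS, 437 and 702 with a mean of at least 5 TPM (fewer genes tested) and 286 and 256 with the myelin covariate. All-gene CRS calls in B6 went from 0 to 2 with a pseudocount of 0.1 TPM, 7 without a filter and 1 with the 5 TPM mean; the single BALB/c call went to 0 with each of these and with median-of-ratios scaling; the strain difference in CRS went from 0 to 2 without a filter, and the average from 1 to 2 without a filter, with the 5 TPM mean and with either rescaling. Row calls for CRS with a pseudocount of 0.1 TPM were 14 in B6, 3 in BALB/c, 5 in the difference and 6 in the average, and without a filter 14, 6, 0 and 0. Actin partners called lower between strains went from 1 to 0 in controls with median-of-ratios scaling or the myelin covariate, and under CRS from 5 to 3 with a pseudocount of 0.1, 2 with median-of-ratios scaling, which called 1 higher, and 0 with the myelin covariate. Uncalled CRS signs also turned for Tpm3 in BALB/c (-0.04 with median-of-ratios scaling, -0.01 rescaled), Tpm4 in BALB/c (-0.05 and -0.02), and in the strain difference for Tpm1 (-0.02 with median-of-ratios scaling) and Tpm3-rs7 (-0.01 with it, -0.18 with a pseudocount of 0.1). The cause was not tested.

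Leaving out 1 library at a time, all-gene calls ran from 428 (without BALB/c control 10) to 1389 (without B6 control 9) between strains in controls, from 539 (without B6 CRS 12) to 1852 (without B6 control 9) under CRS, and from 0 to 2 in each CRS contrast. Row calls ran from 1 to 5 in B6, 0 to 3 in BALB/c, 0 to 1 in the difference and 0 to 5 in the average. Members called between strains in controls ran from 1 to 3, and nothing is read from this, since they were chosen on that contrast. Actin partners called lower ran from 0 to 4 in controls and 0 to 5 under CRS, and those called higher from 0 to 1 and 0 to 2. Uncalled CRS differences that changed sign ran in B6 from -0.01 to 0.12 for Tpm1, -0.16 to 0.52 for Tpm2 and -0.10 to 0.25 for Tpm3-rs7; in BALB/c from -0.01 to 0.21 for Tpm1, -0.06 to 0.14 for Tpm3 and -0.09 to 0.08 for Tpm4; in the strain difference from -0.05 to 0.18 for Tpm1, -0.05 to 0.62 for Tpm2, -0.15 to 0.03 for Tpm4 and -0.16 to 0.18 for Tpm3-rs7; and in the average from -0.02 to 0.07 for Tpm4 and 0.00 to 0.17 for Tpm3-rs7.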
